A study of Mus musculus with 58 samples.

Results

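The RNAs described here are the 200 genes whose transcripts carried the highest share of newly made reads in untreated DPY30–mAID mouse embryonic stem (mES) cells. They were chosen by their T>C share, which is the number of T>C reads of a gene divided by all its reads, in the 3 libraries of untreated cells pooled. Of 20177 genes in the files, 4080 had at least 300 pooled reads, and the 200 with the highest share were taken. The share ranged from 37.2% in Zfp574, the last member, to 57.6% in Siah1b. Members had a median of 40.2% and all 4080 genes a median of 17.6%, with quartiles of 11.2% and 26.3%. These values describe the choice, and no test was made on them. Just inside the limit were Mdm2 with 37.24% and Lgr4 with 37.21%, and just outside it were Gtf2e1 and Zfp516, both with 37.14%, so the limit does not separate distinct groups.

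SLAM-seq labels RNA made during a pulse of the nucleoside 4-thiouridine (4SU), which is read as a T>C mismatch after alkylation. After a short pulse, the labelled share of an RNA is higher the faster its old copies are replaced, so short-lived RNAs come first. Unstable mRNAs in ES cells are known to include many transcription factors, signal feedback inhibitors and cell cycle regulators, and AU-rich and Pumilio-bound elements in the 3′ UTR are known to speed mRNA decay. Ribosomal, respiratory and glycolytic mRNAs are known to be long-lived. The T>C share also depends on how many T positions a read covers and on how much 4SU enters the cell.

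All libraries came from E14 mES cells of the 129/Ola background. In DPY30–mAID cells both copies of Dpy30, a core subunit of the H3K4 methyltransferase complexes, carry an auxin-inducible degron, and the cells also carry the OsTIR1 transgene, which auxin needs to act. RBBP5–FKBP cells, a clone grown from a single sorted cell, carry a dTAG-13-dependent degron on RBBP5, another core subunit. Kdm5dKO cells (dKO) are DPY30–mAID cells from which the H3K4 demethylase genes Kdm5a and Kdm5b were deleted with Cas9, and 2 clones were picked. SLAM-seq cells received 100 µM 4SU for 60 min and were sampled after 0, 2, 8 or 24 h of auxin (DPY30–mAID, n = 3 per time) or dTAG-13 (RBBP5–FKBP, n = 3), or after 0, 2, 4, 8, 24 or 48 h of auxin (dKO, n = 2). Unlabelled DPY30–mAID cells were measured by Quant-seq before retinoic acid (RA) with DMSO at 0 h. They were also measured after 8 h and 1, 2 and 4 days of 1 µM RA with DMSO or auxin (n = 2 per group). Libraries of day 6 with DMSO or auxin entered the fit and the background of T>C reads, but were not compared. Stem cell medium held LIF and RA was given without it, so effects of RA and of LIF withdrawal cannot be told apart. Replicates are separate libraries of a degron line, and whether the dKO libraries come from 1 clone or both is not given in the labels. The p-values measure the spread between such libraries. The study calls the SLAM-seq libraries biological replicates, the labels give only numbers, and for the RA course the spread may be technical. Both degrons remove protein and leave the gene intact, so the RNA of Dpy30 or Rbbp5 is no check of the labels.

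SLAM-seq libraries held between 1721185 and 2852331 reads in the degron lines and between 5931269 and 7792404 in dKO cells, and Quant-seq libraries between 1264241 and 2543632. Both day 6 libraries with DMSO held the same counts and entered as 1. dKO reads were shorter and covered about 11.3 T positions per read at 0 h, against 18.8 to 19.0 in the 3 DPY30–mAID libraries. All 10 ES cell markers were found in the 8 untreated SLAM-seq libraries, at a summed level of 7414 to 10872 CPM (reads scaled by library size and TMM factors). There, lists of 8 markers each summed to 460.0 to 596 for primitive endoderm, 62.6 to 136 for trophectoderm, 41.6 to 125 for neural cells and 0.70 to 25.2 for feeder fibroblasts, with Elf5, Neurog1, Col3a1, Dcn, Lum and Postn at 0. In the 2 Quant-seq libraries of 0 h, ES cell markers summed to 7818 and 8144 and feeder markers to 35.4 and 45.2, with Col1a2 also at 0. The DPY30–mAID libraries of 8 h stood apart: T>C reads made up 13.0%, 9.82% and 5.51% of all reads in replicates 1, 2 and 3.

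Before the values, short windows of 3′ UTR sequence from members show 2 of the 3 elements searched for. The first set holds the AU-rich heptamer, in capitals, in the members with the highest share and in the immediate early genes that have one. Each window is 30 bases of the mRNA strand in GRCm38, 5′ to 3′.
Epha2 (chr4:141328588-141328617, plus strand): cactggaacttTATTTATttctgtttcctc
Eef1e1 (chr13:38645793-38645822, minus strand): tttctcttagaTATTTATtgtagtttattt
Eaf1 (chr14:31509324-31509353, plus strand): tgtgtgtgtgaTATTTATtaattattttaa
Sgk1 (chr10:21999635-21999664, plus strand): aaaacgggcatTATTTATgttttttttccc
Zfp36l1 (chr12:80108421-80108450, minus strand): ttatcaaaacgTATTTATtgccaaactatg

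Epha2 encodes an ephrin receptor, Eef1e1 a scaffold protein of tRNA synthetases, Eaf1 a partner of the ELL elongation factors, Sgk1 a serum-induced kinase and Zfp36l1 a protein that itself binds AU-rich elements and recruits mRNA decay. The second set, added after the values were seen, holds the Pumilio site TGTANATA in capitals in members with the highest share.
Hes1 (chr16:30067602-30067631, plus strand): tgcactgcattTGTATATAttttatatgtt
Eaf1 (chr14:31509356-31509385, plus strand): gagaattgtttTGTAGATAgatatgtatta
Ppp1r10 (chr17:35931413-35931442, plus strand): gtgtgcattgaTGTACATAgtcccctccag
Nr4a1 (chr15:101274522-101274551, plus strand): taccactctgtTGTAAATAagctgacgcta

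Hes1 encodes a Notch-regulated repressor, Ppp1r10 a nuclear regulator of protein phosphatase 1 and Nr4a1 an orphan nuclear receptor induced by growth factors. TATTTAT was found in the annotated 3′ UTR of 78 of 200 members (39.0%) and in 28.2% of the 4069 genes with enough reads and an annotated UTR. TGTANATA was found in 80 members (40.0%) and in 26.8% of those genes, and the shorter ATTTA, which lies within TATTTAT, in 81.5% and 69.6%. Only the mRNA strand was searched, and a match is a description of the letters and not a site shown to act. Members had longer 3′ UTRs than all genes (median of 1319 and 1016 bases), so the elements were also counted within length classes. Among UTRs under 1000 bases, TGTANATA was found in 31.5% of 73 members and 12.2% of 2012 genes, and TATTTAT in 20.5% and 11.2%. From 1000 to under 2000 bases, the shares were 37.1% and 30.8% for TGTANATA and 37.1% and 34.2% for TATTTAT. From 2000 bases on, they were 54.4% of 57 members and 49.9% of 1119 genes for TGTANATA and 64.9% and 53.6% for TATTTAT. Of the 12 members with the highest share, Siah1b, Sertad3, Pcyox1l, Hspa1b and 3110001I22Rik held neither element in the annotated UTR.

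Member genes were compact. They had a median of 6 exons in the annotated transcript against 9 for all genes, and a median span of 16.5 kb against 22.7 kb. A member read covered a median of 24.1 T positions and a read of all genes 19.8, so members offered more positions for a conversion, and their 3′ UTRs held 32.3% and 30.4% T. Across the 4080 genes the T>C share had a Spearman correlation of 0.488 with T positions per read, and conversions per covered T had one of 0.276. When genes were ranked by conversions per covered T instead, 132 of the 200 members stayed among the top 200. Promoters from RefSeq (GRCm38, 250 bases before to 50 after the start) matched 161 members with 215 promoters, and both strands were searched. The cAMP response element TGACGTCA was in 4.19% of them and in 3.71% of the promoters of genes with enough reads, and the CArG box was in 1.395% and 1.45%. The TATA box TATAAA was in 6.98% and 6.44%. The widest gaps were those of TGACG, which lies within the cAMP response element (30.7% of member promoters and 36.3%), and of the ETS core CCGGAAG (19.1% and 22.2%), and they were not tested.

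The gene lists differed in how many members they held, and those of the stable machineries of the cell held none. Across all genes with enough reads, 4.90% are members. The plot of labelled shares by gene list shows each list. Of 10 genes of the integrated stress response 4 were members. Of 9 FGF and ERK feedback genes with enough reads 3 were members, of 15 immediate early genes 4, of 8 feedback genes of the BMP, Nodal and Wnt pathways 2, and of 15 regulators of G1/S and other short-lived cell cycle genes 4. None of 72 cytosolic ribosomal proteins (median share 5.26%), 69 respiratory chain subunits (5.72%), 11 glycolytic enzymes (5.98%) or 32 proteasome subunits (8.97%) was a member. None of 40 SR proteins, hnRNPs and CLK kinases was a member either, at a median of 15.7%. The 2 circadian factors, 3 retinoic acid targets and 7 genes of the methionine cycle with enough reads gave no member.

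Siah1b, a ubiquitin ligase subunit gene of the X chromosome (chrX:164070705-164076493, GRCm38), had the highest share, with 54.2%, 58.0% and 61.1% T>C reads in the 3 libraries (57.7% ± 3.45, SD, n = 3). The binomial interval of its pooled share (95%, Wilson, counting error only) was 54.6% to 60.5% from 1078 reads. Epha2 had 59.1%, 61.6% and 48.2%, Sertad3, which encodes a transcriptional cofactor, 64.7%, 57.4% and 45.7%, and Hes1 51.7%, 59.5% and 55.3%. Hspa1b, a heat-inducible chaperone without introns, had 53.3%, 61.9% and 41.5%. These spreads overlap widely, so the order of the leading genes is not resolved by 3 libraries. Eaf1 was the steadiest of the leading 12, with 52.4%, 51.5% and 50.3%. Nr4a1 had 45.3%, 52.3% and 50.3%, and 3110001I22Rik, a gene of unnamed function, 55.6%, 44.9% and 52.7%. The remaining members of the leading 12 were Pcyox1l with a pooled share of 54.9%, Btg1 with 52.1%, Eef1e1 with 51.4% and Ppp1r10 with 51.1%. Mogs, an enzyme of N-glycan trimming, varied most of the genes named here, with 31.5%, 61.3% and 16.0%.

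The choice of the 200 was itself only moderately stable. With 1 of the 3 libraries left out, between 118 and 143 of the 200 members were chosen again. With at least 100 reads in place of 300 the new 200 shared 90 genes with the members, and with at least 1000 reads 53. Members had a median of 590.5 pooled reads and all genes one of 742.5. In 14 members over 20% of reads mapped to more than 1 place in the genome, among them Btg3 (98.3%), Rybp (96.6%), Btg1 (95.3%), Cdk9 (80.6%) and Zfp42 (79.2%), and their counts are uncertain for that reason. The counted intervals of 3 members, Gm49353, Pelo and Fam210a, overlapped an exon of another gene on the same strand.

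Feedback inhibitors of receptor signalling were among the members in several pathways. Dusp6, a phosphatase that inactivates ERK, had shares of 50.0%, 39.8% and 41.1%, Spred1, an inhibitor of the Ras to Raf step, 34.7%, 36.9% and 41.6%, and Phlda1, a target of ERK signalling, 30.1%, 41.7% and 41.3%. Tgif1, a corepressor of SMAD factors, had 45.2%, 44.8% and 45.6% and was among the steadiest members. Id1, a BMP target that blocks bHLH factors, had 32.5%, 41.5% and 43.7%. Socs3, the feedback inhibitor of the LIF and STAT3 pathway, had 42.3%, 39.9% and 32.9%.

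Members that act in transcription covered sequence-specific factors, coactivators, corepressors and the control of RNA polymerase II. By symbol alone, 23 of 195 genes of transcription factor families and 11 of 86 zinc finger genes were members. Of the pluripotency factors, 3 of 21 were members, among them Zfp42 (also known as Rex1) with 44.4%, 47.8% and 48.9% and Klf2 with 43.1%, 33.7% and 41.4%. Cdk9, the kinase of P-TEFb, had a pooled share of 45.9%, and Hexim1, the protein that holds P-TEFb inactive, one of 38.9%, and these were the only 2 of 24 genes of pausing and elongation among the members. Mycn, with a pooled share of 39.5%, and E2f2, with 45.2%, drive entry into the cell cycle, and Wee1, which holds back mitotic entry, had 46.5%. Of 18 genes in the list of mitosis regulators, 2 were members, Ect2 and Aurka. Among the p53 targets Mdm2 and Trp53inp1 were members, of 11 with enough reads.

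Of the integrated stress response, 4 of 10 genes were members although the list had a low median of its own (13.98%). They were Ppp1r15b, a phosphatase subunit that reverses eIF2α phosphorylation, with 42.1%, 49.1% and 44.1%, Atf4, its central transcription factor, with 35.9%, 39.4% and 43.9%, the amino acid transporter subunit Slc3a2 with 34.2%, 40.5% and 41.5%, and Cebpg.

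Further lists were drawn up after the values were seen. The lists above were fixed earlier, but also with earlier results of these data known, so all lists serve only to describe. Of 42 ubiquitin ligases with RNF, TRIM or SIAH symbols 12 were members, of 15 Mediator subunits 4 (Med1, Med6, Med7, Med20), of 14 genes of cholesterol synthesis and its feedback 3 and of 18 SIN3 and TLE corepressor genes 4 (Sin3a, Phf12, Sap30, Tle4). Of 22 mRNA decay factors 4 were members, among them Btg1, Btg3 and Zfp36l1, of 20 genes of replication licensing and firing 4 (Wee1, Dbf4, Cdt1, Cdk2), and of 22 general transcription factors 1 (Dr1). The Polycomb genes Rybp and Rnf2 were members, of 15, with pooled shares of 45.3% and 40.5%. Of 18 genes for H3K4 methyltransferase subunits, 2 were members: Setd1b with 49.6%, 43.2% and 46.1%, and Rbbp5 with 39.8%, 34.7% and 37.7%.

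Unlabelled libraries gave almost no T>C reads from members. Over the 21 distinct Quant-seq libraries the median member had 0.232% T>C reads and the median gene 0.200%. The highest were 6.07% in Adgrl2 and 4.54% in Gprc5a, and 12 members reached 2%. At 0 h of the RA course, where Adgrl2 again had the highest value (27.3%), 77 members had no T>C read.

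The first question was whether the same RNAs are labelled fastest in cells whose libraries did not choose them. In the untreated RBBP5–FKBP libraries the median share of the members was 30.2%, 26.4% and 24.95% and that of all genes 11.2%, 9.54% and 9.09%. Within these libraries the members' median was 2.69 to 2.77 times that of all genes, and in the libraries that chose them 2.30 to 2.42 times. In the 2 dKO libraries members had 13.7% and 15.6% and all genes 4.75% and 5.38%, a ratio of 2.87 and 2.91. The lines differ in read length and labelling, so shares and ratios of different lines are only set side by side here. Genes are compared by rank within a line. Ranks by share still depend on how many T positions a gene's reads cover, which changes with read length.

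**Figure D1:**
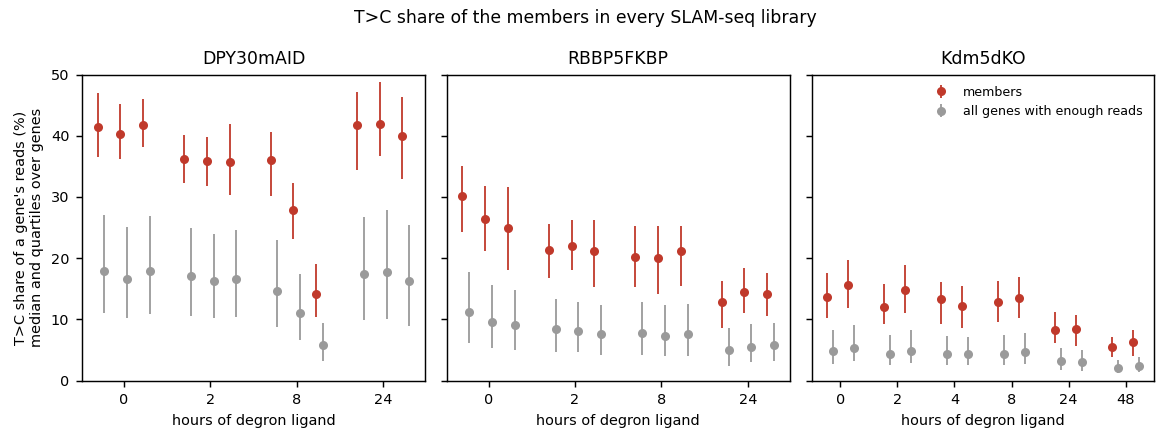
Median T>C share of a gene's reads (y axis, %) in every SLAM-seq library by hours of degron ligand (x axis), for members (red) and all genes with enough reads (grey), with quartiles over genes as lines. Members lie above all genes in each library, and where all genes are low, as at 5.81% in DPY30–mAID 8 h replicate 3, members are low too, there at 14.2%.

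Of the members, 169 had at least 300 pooled reads in the untreated RBBP5–FKBP libraries, of 4172 genes. There, 136 were among the first 417 genes by share and 0 ranked below the median gene, and 98 were among the top 200, which is 49.0% of each list. In dKO cells 187 members had enough reads, of 5869 genes, with 111 among the first 587 and 50 among the top 200 (25% of each list). Below the median gene of dKO cells were 4 members, Mum1 with 2.42% ± 0.409 (SD, n = 2), Mogs with 4.26% ± 0.136, Slc3a2 with 4.47% ± 1.10 and Klf2 with 4.63% ± 0.0234. Klf2 had 39.4% ± 5.02 (n = 3) in DPY30–mAID cells and 38.7% ± 3.62 (n = 3) in RBBP5–FKBP cells and ranked 7 of the genes with enough reads in the latter. Klf2 thus ranked among the highest shares in both degron lines and in the lower part in dKO cells, which has 2 libraries. The shorter reads of dKO cells cover fewer T positions, and their part in such moves of rank was not tested.

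Nr4a1 ranked 11 in DPY30–mAID and 1 in dKO cells, with 49.3% ± 3.60 and 49.1% ± 2.14, and had too few reads for a rank in RBBP5–FKBP cells (26.7% ± 8.25). Epha2 ranked 2 in DPY30–mAID and 8 in dKO cells, where it had 33.3% ± 6.98, and also had too few reads in RBBP5–FKBP cells (51.9% ± 10.8). Siah1b ranked 1 in both degron lines, with 46.7% ± 10.5 in RBBP5–FKBP, and 960 in dKO cells with 11.0% ± 2.13. Txnip, an arrestin-like inhibitor of thioredoxin and glucose uptake, ranked 17 in DPY30–mAID, 2 in RBBP5–FKBP (45.1% ± 3.12) and 1385 in dKO cells (9.14% ± 1.17). Sgk1 ranked 44, 4 and 21 in DPY30–mAID, RBBP5–FKBP and dKO cells, with 44.7% ± 1.59, 40.7% ± 2.77 and 28.6% ± 1.28. Zfp42 ranked 19, 35 and 43, with 47.0% ± 2.34, 34.8% ± 2.92 and 25.2% ± 1.66. These genes were picked after their shares were seen, and the differences between lines were not tested.

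**Figure D2:**
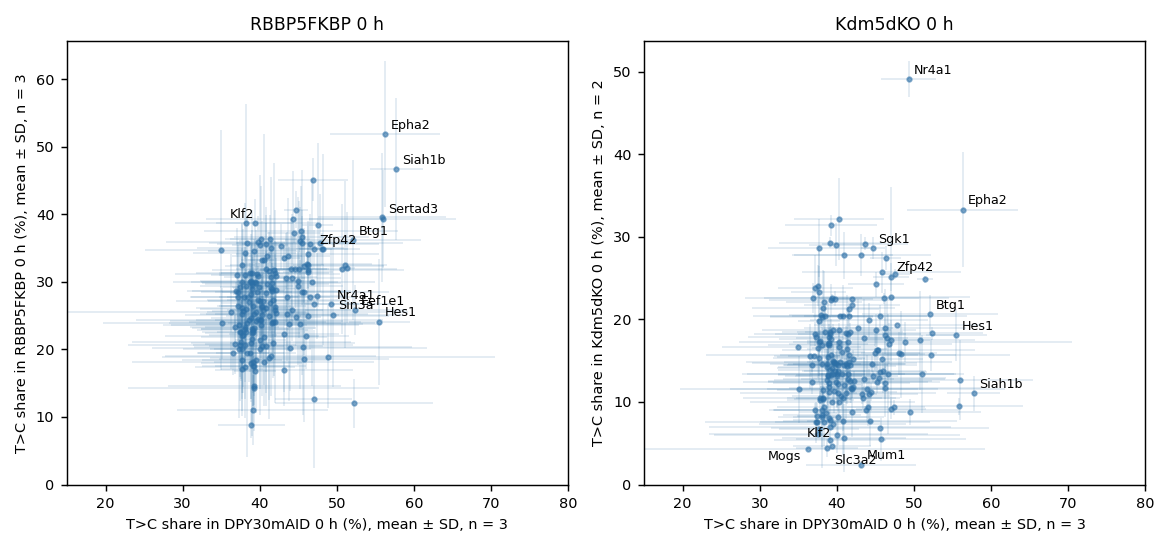
T>C share of each member (%, mean ± SD over libraries) in untreated RBBP5–FKBP cells (left, y axis, n = 3) and dKO cells (right, y axis, n = 2) against that in DPY30–mAID cells (x axes, n = 3). Nr4a1 at 49.1% and Epha2 at 33.3% lead in dKO cells, and Klf2, Mogs, Slc3a2 and Mum1 lie lowest of the labelled genes there, under 5%.

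The next question was how synthesis of the members changed on loss of RBBP5. T>C reads per gene were fitted with edgeR's quasi-likelihood test, scaled to total reads, and a call needed a log2 fold change past 1 in either direction and, after Benjamini-Hochberg adjustment, p under 0.05. The 199 members tested had a median log2 fold change of −0.27, −0.66 and −1.08 at 2, 8 and 24 h, that of all 4761 genes tested −0.33, −0.50 and −0.91, and that of tested genes with enough reads −0.34, −0.52 and −0.92. At 2 h, 1 member was called lower (0.147% of all genes). At 8 h, 25 members (12.6%) were called lower, against 5.61% of all genes and 6.74% of the genes with at least 300 reads in the libraries that chose the members. At 24 h, 78 (39.2%) were called lower, against 22.9% of all genes and 27.1% of those with enough reads. In the 3 untreated libraries members held 2.00%, 2.28% and 2.33% of all reads and 6.12%, 7.07% and 6.94% of T>C reads. Genes with more T>C reads pass a threshold more easily. A higher share of called members, here and below, thus need not mean a larger change, and this was not tested. No member was called higher by edgeR at 8 h or 24 h (0.126% and 0.189% of all genes), with 1 and 0 at an unadjusted p and 0 at both times by DESeq2.

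Much of this count is shared with all genes. When T>C reads were scaled by their own TMM factors, which sets the shift of most genes near 0, the calls fell to 6 at 8 h and 10 at 24 h. Members were lower than the median of all genes by −0.16 at 8 h and −0.17 at 24 h on the log2 scale in the main fit and by −0.18 and −0.16 with that scaling. At 8 h, the count was 9 without replicate 2, 14 without replicate 3, 14 without TMM and 16 without the filter on low counts. Here and below, a replicate left out in RBBP5–FKBP or DPY30–mAID cells was left out of every group of the fit.

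Phlda1 fell most at 8 h. Its T>C reads, in CPM of total reads, were 25.8, 13.1 and 30.8 at 0 h, 11.0, 6.31 and 14.5 at 2 h, 0, 2.24 and 3.17 at 8 h, and 0.437, 0 and 2.88 at 24 h. All treated libraries of 8 h and 24 h lay below all untreated ones. The log2 fold change was −3.60 at 8 h (SE 0.67, edgeR adjusted p = 0.00015) and −4.35 at 24 h (SE 0.71, adjusted p = 3.3e-06). Rsrp1, a gene for an arginine- and serine-rich protein, had 26.3, 30.9 and 39.3 at 0 h and 2.81, 8.41 and 10.4 at 8 h, with a log2 fold change of −2.13 (SE 0.44, adjusted p = 0.00076). Gtpbp10, a GTPase of mitochondrial ribosome assembly with 66.1% of its reads mapping to several places, went from 6.11, 10.7 and 5.94 to 2.25, 0 and 0.453 at 8 h, with a log2 fold change of −3.03 (SE 1.01, adjusted p = 0.048).

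Of the FGF and ERK feedback genes, 3 of 14 tested fell at 8 h, and 2 of these were members. The second was Spred1, with 46.98, 52.6 and 51.9 at 0 h and 17.4, 13.4 and 17.2 at 8 h, a log2 fold change of −1.65 (SE 0.32, adjusted p = 0.00025). Dusp6 joined them at 24 h, when 9 of 14 had fallen. Of all genes, 5.61% had fallen at 8 h and 22.9% at 24 h. Of the BMP, Nodal and Wnt feedback genes, Id1 was the only member that fell at 8 h. Its level went from 51.2, 61.4 and 50.1 to 13.5, 17.4 and 9.05 at 8 h and stood at 15.7, 21.0 and 18.7 at 24 h, and these 2 groups overlapped. Its log2 fold change was −2.04 at 8 h (SE 0.33, adjusted p = 1.3e-05) and −1.55 at 24 h (SE 0.32, adjusted p = 0.00014).

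Hexim1 was the single member of the pausing list that fell at 8 h, from 39.9, 46.5 and 41.2 to 15.2, 14.6 and 13.1, with a log2 fold change of −1.57 (SE 0.35, adjusted p = 0.0017). Of the cell cycle members, E2f2 passed at 8 h (log2 fold change −1.85, SE 0.56, adjusted p = 0.03) and at 24 h had −1.13 (SE 0.53, adjusted p = 0.11). Its call at 8 h is lost without any 1 of the 3 replicates, with log2 fold changes from −2.28 to −1.61. Mycn and Cdt1 passed at 24 h and not at 8 h. Mycn had 81.8, 58.6 and 58.2 at 0 h, 56.8, 35.3 and 43.4 at 8 h and 10.9, 24.7 and 31.2 at 24 h. The groups of 0 h and 24 h did not overlap, and the log2 fold change at 24 h was −1.57 (SE 0.29, adjusted p = 2.3e-05). Setd1b, encoding an H3K4 methyltransferase, went from 71.4, 47.2 and 63.4 to 21.4, 18.7 and 21.1 at 24 h, with a log2 fold change of −1.57 (SE 0.28, adjusted p = 1.5e-05). Nufip2, which encodes an RNA-binding protein, was the member called at 2 h, from 319, 316 and 299.7 to 136, 146 and 170.0 (log2 fold change −1.05, SE 0.18, adjusted p = 0.001). That call is lost without replicate 1 (−0.96) or replicate 2 (−1.02), at adjusted p of 0.073 and 0.11.

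All 3 members of the sterol pathway fell at 8 h, in a list drawn up after the values were seen. Insig1, which retains the SREBP activator in the endoplasmic reticulum, went from 106, 71.0 and 76.4 to 27.6, 32.5 and 20.8 at 8 h. Msmo1, a sterol oxidase, went from 70.0, 93.1 and 74.9 to 23.6, 35.9 and 35.8. In both genes the groups did not overlap, and the log2 fold changes at 8 h were −1.65 (SE 0.26) and −1.32 (SE 0.28), with adjusted p of 9.3e-06 and 0.0009. Of the whole list 8 of 16 genes tested fell at 8 h and 12 at 24 h, beside 5.61% and 22.9% of all genes, and since the list was chosen on these values the counts only describe it.

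The leading gene, Siah1b, changed little in comparison, with 72.4, 62.5 and 55.3 at 0 h and 43.7, 44.3 and 30.2 at 24 h (log2 fold change −0.68, SE 0.26, adjusted p = 0.043, short of the size needed). Klf2 likewise had 270, 289 and 264 at 0 h and 182, 182 and 193 at 24 h, with a log2 fold change of −0.56 (SE 0.16, adjusted p = 0.0068). Hes1 had 3.76, 6.39 and 9.64 at 0 h and 8.30, 12.6 and 10.6 at 24 h, and the groups overlapped.

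In total reads of the same RBBP5–FKBP libraries far fewer members passed than in the main fit of T>C reads. With T>C reads scaled by their own TMM factors, their count of lower members was below that of total reads at 8 h and close to it at 24 h. At 8 h, 10 were called lower and 3 higher (2.1% and 2.22% of all genes), and at 24 h 8 lower and 3 higher (1.86% and 1.63%). Of genes with enough reads, 2.21% were lower and 0.711% higher at 8 h, and 2.13% and 0.588% at 24 h. The members' median was −0.25 at 8 h and −0.13 at 24 h, that of all genes 0.01 and 0.02, and that of genes with enough reads −0.07 and −0.04. Of the 10 genes lower in total reads at 8 h, 8 were also among the 25 lower in T>C reads, including Phlda1, Insig1, Msmo1, Spred1, Rsrp1 and Id1. The 10 became 6 without replicate 2, and the 3 higher at 8 h became 0, 2 and 1 without replicates 1, 2 and 3.

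Total reads of Phlda1 were 68.6, 63.2 and 97.9 CPM at 0 h, 21.9, 6.72 and 21.7 at 8 h and 12.2, 6.53 and 6.71 at 24 h (log2 fold change −3.16 at 24 h, SE 0.35, adjusted p = 2.5e-06). Id1 fell at 8 h from 150.3, 168 and 152 to 77.1, 79.0 and 76.0 and was back at 142, 129 and 138 at 24 h, where the log2 fold change was −0.20 (SE 0.15, adjusted p = 0.45). Mogs rose, from 38.1, 35.2 and 30.8 to 93.4, 74.0 and 57.9 at 8 h and 86.9, 65.3 and 72.4 at 24 h (1.11 at both times, SE 0.23, adjusted p = 0.0029 and 0.0028). Atf4 rose at 24 h, from 115, 82.1 and 74.2 to 194.8, 184 and 173 (1.03, SE 0.19, adjusted p = 0.0012). Kit, a growth factor receptor gene, had 20.2, 24.2 and 17.1 at 0 h and 50.1, 30.3 and 57.9 at 8 h, a log2 fold change of 1.17 (SE 0.30, adjusted p = 0.015). Without replicate 1, Mogs had 0.99 (adjusted p = 0.058) at 8 h and 1.07 (0.053) at 24 h. Kit had 1.10 (adjusted p = 0.11) without replicate 1 and 0.84 (0.19) without replicate 3. Atf4 fell just short of the size needed without replicate 2 or 3, with 0.95 and 0.93.

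In dKO cells the members were followed on auxin over 48 h. Of 196 tested in T>C reads, edgeR called 0 lower at 2 h and 4 h (0% and 0.201% of all genes), with 0 and 1 at an unadjusted p and 0 at both by DESeq2. At 8 h, 1 was called lower (0.704%), at 24 h 60 (30.6%, against 27.5% of all genes and 29.3% of those with enough reads) and at 48 h 145 (74.0%, against 64.4% and 69.0%). None was called higher by edgeR at 24 h or 48 h (0.117% of all genes at each time), with 0 at an unadjusted p and 0 by DESeq2. The members' median log2 fold change was −0.77 at 24 h and −1.33 at 48 h and that of all genes −0.80 and −1.29, so the members moved with the rest. Scaled by TMM factors of T>C reads, 3 members were lower and 1 higher at 24 h, and 6 lower and 3 higher at 48 h. In total reads edgeR called 0 members lower at 48 h (0.781% of all genes; 0 at an unadjusted p and 0 by DESeq2) and 1 higher (1.66%), Phlda1.

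The lowest at 24 h was Klhl21, an adaptor of a ubiquitin ligase in mitosis, with T>C reads of 2.68 and 2.79 CPM at 0 h, 2.71 and 3.06 at 8 h, 0.141 and 0.594 at 24 h and 0.291 and 1.16 at 48 h (24 h log2 fold change −2.86, SE 0.64, adjusted p = 0.00024). Mogs followed, with 2.38 and 1.99 at 0 h and 0.423 and 0.446 at 24 h (−2.28, SE 0.66, adjusted p = 0.0042), and Rnf114, a ubiquitin ligase, with 7.003 and 11.4 against 2.96 and 2.53 (−1.75, SE 0.32, adjusted p = 6.4e-06). Cdk9 went from 13.4 and 14.2 to 4.93 and 3.42 (−1.72, SE 0.26, adjusted p = 2.2e-07) and Zfp740 from 15.6 and 21.4 to 6.06 and 5.20 (−1.72, SE 0.24, adjusted p = 2.2e-08). In all 5 genes both treated libraries lay below both untreated ones. With T>C reads scaled by their own TMM factors, fewer members than these 5 were lower at 24 h, so not all of them keep their call.

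Sgk1 fell from 40.4 and 43.8 to 18.3 and 13.2 at 24 h and 10.3 and 10.8 at 48 h (−1.99 at 48 h, SE 0.20, adjusted p = 6.8e-15). Zfp42 went from 157 and 169.5 to 49.2 and 69.8 at 48 h (−1.46, SE 0.15, adjusted p = 2e-14), and Foxd3, a forkhead factor of pluripotent cells, from 15.6 and 21.2 to 3.35 and 5.78 (−2.01, SE 0.25, adjusted p = 1e-10). The sterol genes Insig1 and Msmo1 fell here too, at 24 h and 48 h, when 27.5% and 64.4% of all genes were called lower. Zfp292, a zinc finger gene, was the member called at 8 h, with 5.96 and 9.42 at 0 h and 2.71 and 3.06 at 8 h (−1.42, SE 0.33, adjusted p = 0.0086). That call is lost without 0 h replicate 2 and without either library of 8 h, and DESeq2 gave no adjusted p for this gene.

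Other members showed little or no fall. Nr4a1 had 24.1 and 42.1 at 0 h, 33.4 and 36.5 at 24 h and 10.5 and 32.2 at 48 h, and these groups overlapped. Phlda1 had 71.2 and 86.3 at 0 h and 76.8 and 71.3 at 24 h (−0.09, SE 0.15, adjusted p = 0.63), and its total reads rose from 272 and 277 to 505 and 639 at 48 h (1.06, SE 0.09, adjusted p = 1.3e-06). Mdm2, the ubiquitin ligase of p53, had 59.8 and 69.8 at 0 h and 54.1 and 57.8 at 24 h (−0.21, SE 0.15, adjusted p = 0.25).

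Side by side, 59 members were called lower both in RBBP5–FKBP at 24 h and in dKO cells at 48 h, which is 59 of 78 and 59 of 145. Since 74.0% of all members tested were called lower in dKO cells at 48 h, 59 of 78 is close to what that rate alone gives. Of the 25 lower in RBBP5–FKBP cells at 8 h, 13 were among the 60 lower in dKO cells at 24 h, including Insig1, Msmo1, Id1, Spred1, Eaf1, E2f2, Gtpbp10 and Rsrp1. At that time 30.6% of the members were called in dKO cells. Phlda1 was among the 25 and not among the 60. The overlaps were not tested.

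**Figure D3:**
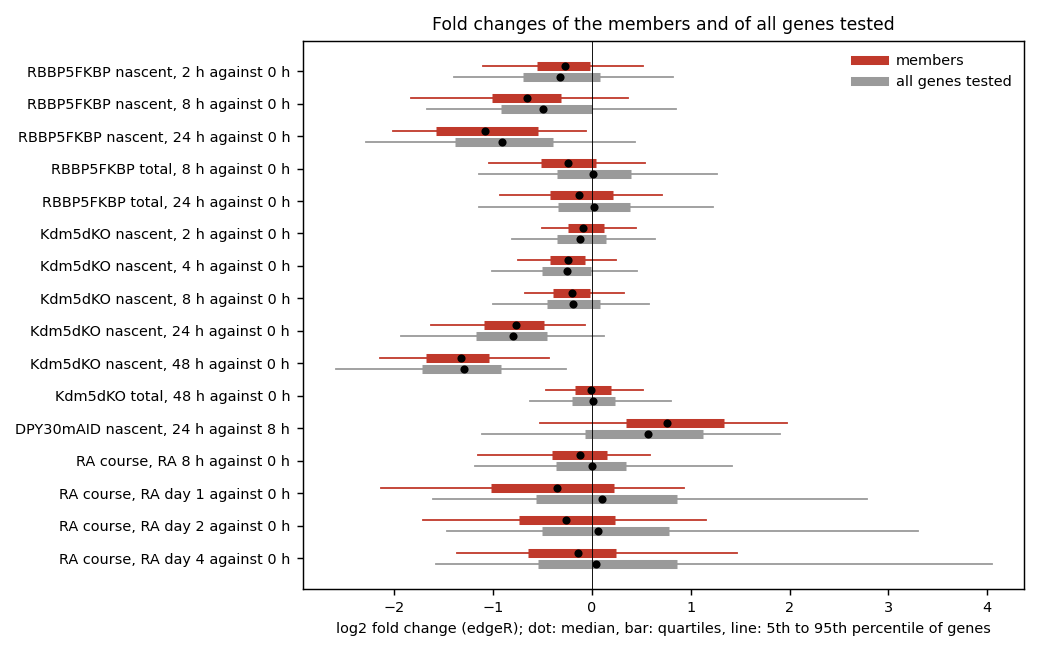
Log2 fold changes (x axis, edgeR) of the members (red) and of all genes tested (grey) in each comparison (y axis); dots are medians, bars quartiles and lines the 5th to 95th percentile over genes. The member medians lie at −1.08 in RBBP5–FKBP nascent reads at 24 h, close to all genes at −0.91, and at −0.36 on day 1 of RA, where all genes lie at 0.10 and, not drawn, those with enough reads at −0.23.

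In DPY30–mAID cells themselves, the untreated libraries chose the members, so comparisons with 0 h are given as a description. Choosing genes by a high T>C share at 0 h favours genes whose T>C reads happened to be high there. Lower T>C reads at later times are therefore partly built in, and how much was not tested. At 8 h of auxin, 82 members were lower in T>C reads, and 14.5% of all genes and 21.3% of those with enough reads were. The median log2 fold change was −0.97 in members, −0.71 in all genes and −0.81 in those with enough reads. At 2 h these medians were −0.32, −0.08 and −0.11, and at 24 h −0.23, −0.14 and −0.15, so the fall was largest at 8 h. The 3 libraries of 8 h differed widely, with a member median share of 36.1%, 27.9% and 14.2%. The count of 82 became 1 without replicate 2, 42 without replicate 3, and 17 with TMM factors of T>C reads.

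The fold change from 8 h to 24 h did not use the untreated libraries, although they were part of the same fit and so entered its filter and its estimate of the spread. Members had a share of 41.8%, 41.9% and 39.9% at 24 h, and 70 of 200 (35.0%) were called higher at 24 h than at 8 h, against 16.1% of all genes and 22.7% of genes with enough reads. Mogs alone was called lower (0.934% of all genes). The members' median was 0.76, that of genes with enough reads 0.66 and that of all genes 0.56, and the difference of 0.20 between the first and the last became 0.22 with TMM factors of T>C reads. The number called higher was 6 without replicate 2, 44 without replicate 3 and 28 with that scaling, and lower calls then numbered 10. Replicate 3 had the lowest T>C share at 8 h, and leaving it out cost fewer calls than leaving out replicate 2. The part of the uneven T>C share in the result was not tested.

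The highest was 3110001I22Rik, with T>C reads of 15.0, 22.8 and 21.8 CPM at 0 h, 5.65, 6.09 and 2.18 at 8 h and 33.6, 32.7 and 38.9 at 24 h. Its log2 fold change from 8 h to 24 h was 2.90 (SE 0.45, edgeR adjusted p = 1.3e-05). Wsb1, a ubiquitin ligase adaptor, had 16.2, 16.9 and 9.60 at 8 h and 93.2, 113 and 101 at 24 h (2.84, SE 0.36, adjusted p = 1.7e-07). Pop7, a subunit of RNase P and MRP, had 2.83, 4.22 and 1.31 at 8 h and 19.2, 22.8 and 15.9 at 24 h (2.78, SE 0.55, adjusted p = 0.00035). In these 3 genes every library of 24 h lay above every library of 8 h. Phlda1 had 45.1, 51.9 and 56.2 at 0 h, 18.6, 8.90 and 4.80 at 8 h and 64.4, 50.6 and 56.8 at 24 h. Dusp6 had 132, 122.6 and 118 at 0 h, 111, 54.8 and 35.8 at 8 h and 292, 287 and 224 at 24 h (1.99, SE 0.32, adjusted p = 2.1e-05). Both p53 targets among the members, Mdm2 and Trp53inp1, rose, as did 10 of 15 genes of that list, beside 16.1% of all genes. Of the stress response members, Slc3a2, Atf4 and Ppp1r15b rose. Mogs had 15.3, 7.03 and 9.60 at 8 h and 2.40, 5.46 and 0 at 24 h (−2.06, SE 0.66, adjusted p = 0.024). Of the members named in this comparison, 3110001I22Rik, Wsb1, Phlda1 and Trp53inp1 kept their call without replicate 2, and Pop7, Dusp6, Mdm2, Slc3a2, Atf4, Ppp1r15b and Mogs lost it. The log2 fold changes of the 6 higher ones were then 3.05, 1.81, 1.66, 1.10, 0.98 and 1.72, so apart from Atf4 the size stayed past 1 and the adjusted p did not pass, and the same held for Mogs.

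The last question was how these RNAs change in RA medium without LIF, in total reads of unlabelled libraries. With DMSO, edgeR called 16 members lower and 4 higher at 8 h (3.03% and 3.47% of all genes), 52 lower and 9 higher on day 1 (12.3% and 17.1%), 33 lower and 11 higher on day 2 (9.97% and 16.3%) and 24 lower and 17 higher on day 4 (11.1% and 19.6%). As shares of the 200 members, 8.0% were lower at 8 h, 26.0% on day 1, 16.5% on day 2 and 12% on day 4, and 2.0%, 4.5%, 5.5% and 8.5% were higher. Of the genes with enough reads, the set the members were drawn from, 2.85%, 19.0%, 13.4% and 13.5% were lower and 0.957%, 4.83%, 3.83% and 4.47% higher. On day 4, the 8.5% of members called higher thus lies above the value of these genes and below that of all genes, and neither difference was tested. These counts depend on the read limit of the choice: the 200 fastest genes with at least 1000 reads gave 2 higher on day 1, 54 lower and 6 higher on day 2, and 47 lower and 8 higher on day 4, and those with at least 100 reads 22 higher on day 1. The members' median log2 fold change was −0.13 at 8 h, −0.36 on day 1, −0.27 on day 2 and −0.14 on day 4, that of all genes 0, 0.10, 0.06 and 0.04, and that of genes with enough reads −0.04, −0.23, −0.22 and −0.30. Without TMM the day 4 median of the members was 0.04 and that of all genes 0.21, so its sign depends on the scaling. Cells changed identity meanwhile: the summed ES cell markers went from 7818 and 8144 to 3594 and 3623 CPM on day 4, with all 10 detected, 8 primitive endoderm markers from 312 and 320.0 to 7088 and 7203, and 8 trophectoderm markers from 64.5 and 75.1 to 508 and 527. The 8 neural markers summed to 109.7 and 118 at 0 h and to 88.3 and 94.7 on day 4. Their part in the members' changes was not tested. In bulk samples fewer cells of a type and less RNA per cell cannot be told apart.

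Foxd3 and Socs3, a target of LIF signalling, had the largest falls of the members at 8 h. Foxd3 had 163 and 170.0 CPM at 0 h, 27.1 and 27.2 at 8 h, 8.31 and 15.0 on day 1 and 12.5 and 8.50 on day 4 (8 h log2 fold change −2.61, SE 0.20, adjusted p = 2.6e-10). Socs3 went from 313 and 300.3 to 50.0 and 52.5 at 8 h and 8.22 and 6.71 on day 4 (−2.58 at 8 h, SE 0.15, adjusted p = 2.3e-12). Klf2 went from 752 and 790.3 to 293 and 287 at 8 h and 111 and 87.2 on day 1 (−2.96 on day 1, SE 0.12, adjusted p = 8.8e-17). In these genes the 8 h libraries lay far below those of 0 h, whereas Zfp42 had 373 and 397 at 0 h, 267 and 288 at 8 h and 161 and 137 on day 1 (−1.37, SE 0.15, adjusted p = 3e-08). Among all 23 pluripotency factors tested, 16 had fallen on day 1, beside 12.3% of all genes, and 2 of these were members.

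Mycn fell and partly returned, with 75.5 and 65.8 at 0 h, 17.1 and 11.5 at 8 h, 7.12 and 8.42 on day 1 and 33.7 and 26.8 on day 4 (day 1 log2 fold change −3.17, SE 0.27, adjusted p = 2.1e-10; day 4 −1.22, SE 0.20, adjusted p = 1.2e-05). Setd1b had the same course, with 196 and 193, then 84.2 and 75.5, then 13.1 and 19.2, then 132 and 141 (day 1 −3.59, SE 0.18, adjusted p = 1.1e-14; day 4 −0.51, SE 0.13, adjusted p = 0.0016). Zfp36l1 fell from 171 and 163 to 38.6 and 44.5 on day 1 and rose to 392.3 and 366 on day 4 (1.18, SE 0.12, adjusted p = 5.5e-09). Of the 4 immediate early members, Sgk1, Zfp36l1 and Nr4a1 were lower at 8 h and on day 1, when 6 and 10 of the 37 genes of that list tested were lower, beside 3.03% and 12.3% of all genes. Sgk1 went from 231 and 230.3 to 88.9 and 102 at 8 h and 70.5 and 55.5 on day 4, and Nr4a1 from 41.9 and 32.9 to 8.31 and 4.21 on day 1.

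Genes of several functions fell at 8 h or day 1. Tet2, a DNA demethylase gene, had 135 and 125 at 0 h and 64.1 and 58.3 at 8 h (−1.09, SE 0.20, adjusted p = 0.00025), and Med1 108 and 109 against 54.1 and 48.2 (−1.09, SE 0.16, adjusted p = 1.3e-05). These names were chosen with the values known. The cell cycle members E2f2, Cdt1 and Mycn were lower on days 1 and 4, when 8 and 10 of the 25 genes of that list tested were, and both mitosis members, Aurka and Ect2, were lower on day 4 with 7 of 23 genes of theirs. Of all genes, 12.3% were lower on day 1 and 11.1% on day 4, and of those with enough reads 19.0% and 13.5%.

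The members that rose were fewer. Txnip had 236 and 240.1 at 0 h, 817 and 677 at 8 h and 1720 and 1735 on day 1 (8 h log2 fold change 1.65, SE 0.15, adjusted p = 1.4e-08). Phlda1 had 35.1 and 38.9 at 0 h, 87.7 and 87.9 at 8 h, 49.3 and 43.3 on day 1 and 489.6 and 449 on day 4 (3.66 on day 4, SE 0.12, adjusted p = 8.4e-19). Dusp6 went from 188 and 163 to 397 and 379.8 at 8 h (1.15, SE 0.19, adjusted p = 8.3e-05) and Epha2 from 23.9 and 18.4 to 51.8 and 37.3 (1.07, SE 0.38, adjusted p = 0.049). Both FGF and ERK feedback genes that rose at 8 h, of 19 tested, were members. At that time 3.47% of all genes and 0.957% of those with enough reads were called higher. Id1 had 266 and 273 at 0 h, 208 and 218 at 8 h and 781 and 729 on day 1 (1.49, SE 0.09, adjusted p = 7.9e-13). Tcf7l2, a Wnt pathway factor chosen after its values were seen, had 15.1 and 24.8 at 0 h and 149 and 152 on day 4 (2.89, SE 0.22, adjusted p = 1.4e-11).

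**Figure D4:**
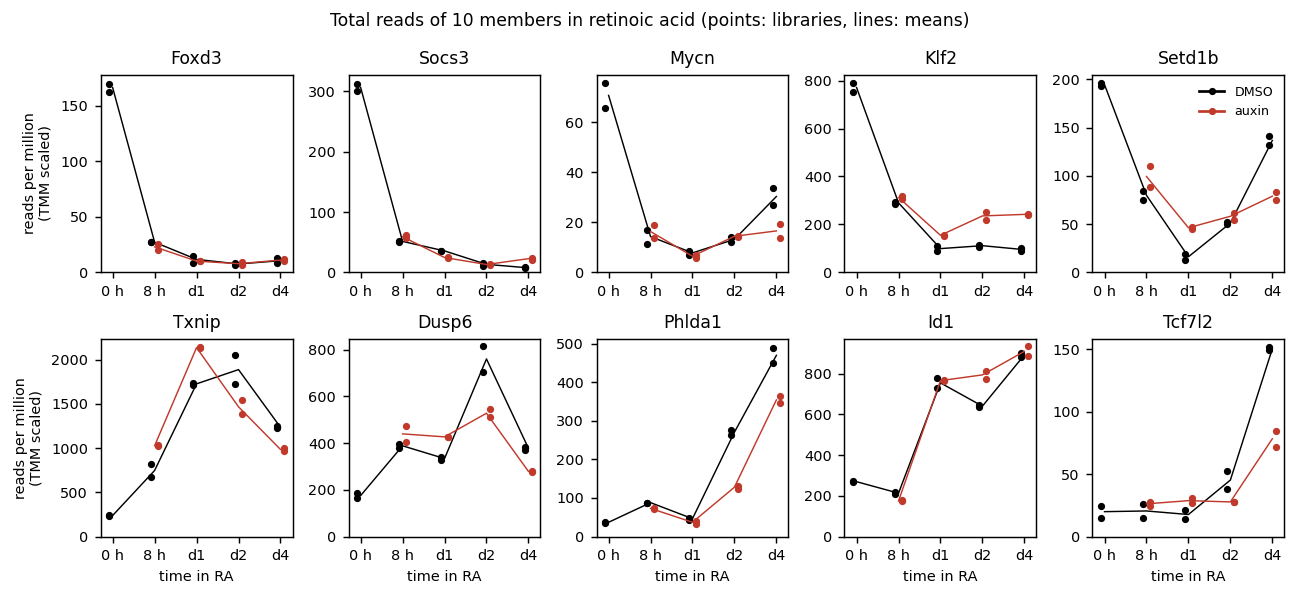
Total reads in CPM (y axes, TMM scaled) of 10 members in Quant-seq libraries of DPY30–mAID cells by time in RA (x axes), with DMSO (black) or auxin (red); points are libraries and lines join means, n = 2. The upper row falls by 8 h in DMSO and the lower row rises by day 4, for example Foxd3 from 163 and 170.0 to 27.1 and 27.2 at 8 h and Tcf7l2 to 149 and 152 on day 4.

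Auxin during RA changed few members against DMSO at the same time. edgeR called 0 lower and 0 higher at 8 h (0.149% and 0.0175% of all genes; 0 at an unadjusted p and 0 by DESeq2 in each direction), 1 lower and 1 higher on day 1 (1.54% and 0.894%), 3 lower and 2 higher on day 2 (2.04% and 2.71%), and 4 lower and 4 higher on day 4 (2.88% and 4.42%). Of genes with enough reads, 2.31% were lower and 0.663% higher on day 4. The day 1 genes were Pank1, a kinase of coenzyme A synthesis, and Setd1b, which had 46.99 and 45.4 with auxin and 13.1 and 19.2 with DMSO.

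Klf2 stayed higher with auxin, at 251 and 219.8 on day 2 and 240.1 and 244 on day 4, against 108 and 115 and then 102 and 87.7 with DMSO (1.35 on day 4, SE 0.12, adjusted p = 3e-09). Socs3 had 24.1 and 21.2 with auxin and 8.22 and 6.71 with DMSO on day 4 (1.59, SE 0.27, adjusted p = 8.5e-05), and Hspa1b 24.1 and 33.6 against 6.49 and 8.05 (1.98, SE 0.35, adjusted p = 0.00016). Rnf19b, a ubiquitin ligase, was the fourth higher member. Slc3a2 and Atf4, of the stress response, were lower with auxin on day 4: Slc3a2 had 118 and 104 against 286 and 314 (−1.43, SE 0.13, adjusted p = 3.3e-09), and Atf4 251 and 346 against 717 and 660.3 (−1.20, SE 0.13, adjusted p = 9.6e-08). Fzd7 and Epha2 were the remaining lower members on day 4. Without TMM, which moves the median of all genes in this comparison from −0.03 to 0.18, Slc3a2 alone was called lower (−1.22, adjusted p = 4e-08), and Atf4 had −0.99 (adjusted p = 3e-06) and Epha2 −0.85 (adjusted p = 0.12). On day 2, Phlda1 had 131 and 124 with auxin and 264 and 277 with DMSO (−1.08, SE 0.11, adjusted p = 1.1e-07), Slc3a2 was lower already, and Gprc5a was the third. In each of the genes with values given here the 2 auxin libraries lay on one side of the 2 DMSO libraries.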

How the data were processed

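The authors made the files with SlamDunk from 3′-end reads aligned to GRCm38 and counted over 46420 annotated 3′ UTR intervals, without molecular identifiers; the deposited values are counts of all reads and of T>C reads per interval, for 36 SLAM-seq and 22 Quant-seq libraries. The study's methods name HISAT2 2.2.1 and featureCounts for Quant-seq, whereas the file headers name SlamDunk 0.3.4. The deposited T>C reads include those with 1 conversion, whereas the study's own tests used reads with at least 2. Counts were summed per gene and named with GENCODE vM21 (20177 of 20177 matched).

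Counts were tested with edgeR 4.0.16 (quasi-likelihood, R 4.3.3) in one fit per line and read type and one of 21 RA libraries, with genes kept where some group averaged 10 reads or more, adjusted over all genes tested. T>C reads were scaled to total reads with their TMM factors. DESeq2 1.42.0 was an alternative, as were other scalings, filters, member choices and left-out libraries. The fits were run on simulated counts with known changes. The simulation gave every gene the same spread, changed only genes with larger expected counts and held no shift in labelling between libraries. It does not show how the fits behave with few T>C reads or uneven labelling. Per-library shares needed at least 20 reads. Depth intervals cover counting error only.

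Named genes were the 12 members with the highest share, the 3 highest of each fixed gene list, and the 3 lowest and 3 highest called members of each main comparison; others are named where a count is small or as seen. The members, lists and tests were chosen with earlier results of these data known. Some genes and a sequence that these rules would name are not reported here, but they enter the counts.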

Additional observations from a re-analysis of the deposited data

Results flagged for a closer look

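In a group of 4 or more samples an outlying sample could be tested, but no group here had more than 3 libraries. Among the genes named by rule, the following moved in opposite directions in RBBP5–FKBP and dKO cells at the same time after ligand, with every treated library on one side of every untreated library in each line, and the difference between the lines was not tested. In T>C reads at 24 h, Wsb1 had a log2 fold change of −0.83 in RBBP5–FKBP and 0.36 in dKO cells. In total reads at 8 h, Ppp1r10 had 0.40 and −0.21, Rnf114 −0.40 and 0.13, and Wsb1 −0.40 and 0.22. None of the values in this paragraph was called in either line.

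In total reads at 24 h the largest contrast was that of Phlda1, with −3.16 in RBBP5–FKBP and 0.88 in dKO cells. Mogs had 1.11 and −0.54, Sertad3 0.85 and −0.23, Atf4 1.03 and −0.0529, and Zfp292 0.62 and −0.20. The reverse order held for 3110001I22Rik with −0.99 and 0.32, Rsrp1 with −1.01 and 0.0555, and Wsb1 with −0.40 and 0.75. Of these, Phlda1, Mogs, Atf4 and Rsrp1 were called in RBBP5–FKBP cells and the others were not. In total reads of dKO cells at 24 h, 0 members were called in either direction. Several of these values in dKO cells are small, and the lines differ in degron, ligand, read length and number of libraries.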

How the results depend on the processing

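Of 37 counts of called members, 35 stayed within 1.5 times under DESeq2, 36 without the filter on low counts and 33 without TMM. With DESeq2's size factors 22 of 22 stayed. Without members of high unlabelled share all 37 stayed, but this left out only 1 member, Adgrl2, and so tests little. With a replicate block all 37 counts stayed within 1.5 times, for example 23 in place of 25 members lower in RBBP5–FKBP cells at 8 h and 76 in place of 78 at 24 h; deviations of same-numbered libraries had median correlations of −0.0193 to 0.0721 over the 7 fits, with single pairs from −0.327 to 0.521, and since not every pair was above 0.1 the numbers were not taken to pair samples. Under DESeq2, RBBP5–FKBP 2 h gave 3 and dKO 8 h gave 0, with no adjusted p for the member that edgeR called. Without TMM, the 24 h against 8 h DPY30–mAID comparison gave 2 lower, RBBP5–FKBP 8 h 14, dKO total 48 h 2 higher and auxin on day 4 1 lower. Without the filter RBBP5–FKBP 8 h gave 16.

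Scaling T>C reads by their own TMM factors moved 10 of 15 counts. Of 159 called fold changes of named members, 38 stayed called with it, 110 were no longer called and 11 changed sign. DPY30–mAID gave 17 lower at 8 h, and 10 lower and 28 higher from 8 h to 24 h; RBBP5–FKBP gave 0, 6 and 10 lower at 2, 8 and 24 h; dKO gave 3 lower and 1 higher at 24 h and 6 lower and 3 higher at 48 h. At 48 h in dKO cells the log2 fold change then turned positive in Siah1b (0.0195), Epha2 (0.0433), Ppp1r10 (0.10), E2f2 (0.0199), Ppp1r15b (0.14), Atf4 (0.15), Hexim1 (0.0022), Gtpbp10 (0.10), Socs3 (0.13), Txnip (0.12) and Rbbp5 (0.0340). By construction this scaling removes a shift shared by most genes.

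Other member choices changed more. With at least 100 reads, DPY30–mAID gave 54 lower at 8 h and 42 higher from 8 h to 24 h, RBBP5–FKBP 0, 13 and 42 lower in T>C reads, and 2 lower and 1 higher in total reads at 24 h. dKO then gave 2 lower at 8 h, 1 higher at 24 h, 1 higher at 48 h and 3 lower in total reads at 48 h, RA 22 higher on day 1 and auxin 4 lower on day 1, and 58 genes were shared with the top of RBBP5–FKBP. With at least 1000 reads, DPY30–mAID gave 2 lower from 8 h to 24 h, RBBP5–FKBP 38 and 119 lower at 8 h and 24 h, dKO 2 and 3 lower at 4 h and 8 h and 2 higher in total reads at 48 h. RA gave 2 higher on day 1, 54 lower and 6 higher on day 2, and 47 lower and 8 higher on day 4, and auxin 0 lower and 6 higher on day 1. The median share was 23.1% in RBBP5–FKBP and 12.2% in dKO cells, with 28 genes shared with the top of dKO. By conversions per covered T, DPY30–mAID gave 2 lower from 8 h to 24 h, RBBP5–FKBP 0 lower at 2 h and 13 lower in total reads at 24 h, and auxin 2 lower at 8 h, 4 lower and 2 higher on day 1 and 1 higher on day 2. The cause was not tested.

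With libraries left out, 117 of 148 values stayed within 1.5 times. In the fits of the 2 degron lines, 1 replicate number was left out of every group at once. In dKO cells and RA, 1 library was left out at a time. In DPY30–mAID cells lower calls at 8 h ranged from 1 to 105, and those from 8 h to 24 h from 0 to 2 lower and 6 to 73 higher. RBBP5–FKBP ranged from 0 to 1 at 2 h, 9 to 21 at 8 h, and in total reads at 8 h 6 to 11 lower and 0 to 2 higher. dKO ranged from 0 to 1 at 4 h, 0 to 3 at 8 h, and in total reads at 48 h 0 to 5 lower and 0 to 3 higher. Auxin ranged from 0 to 1 lower at 8 h, 0 to 2 lower and 1 to 2 higher on day 1, and 2 to 5 lower and 1 to 2 higher on day 2. Leaving out single libraries of dKO and RA, and replicates in total reads, was chosen after seeing the data. A lone remaining sample was assumed to vary like the others. With 2 or 3 libraries and few T>C reads in many members, small differences can be missed, and no limit of detection was worked out.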
